A study of Mus musculus with 4 samples.

Results

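The genes described here are named for the proteins of the mitochondrial ribosome (MRP genes). They are the rows of the gene table whose symbol begins with Mrpl or Mrps and a number, without the 4 rows marked as pseudogenes. This gives 77 of 31060 genes, 50 of which are counted here with the large subunit and 27 with the small subunit. Apart from Mrps18a and Mrps30, the count follows the gene names, so that Mrps36 is taken as a ribosomal protein by name alone. All 77 passed the filter on low counts, with at least 103 counts in each library.

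RNA was sequenced from the hippocampus of wild-type C57BL/6 mice aged 12 months, with 2 libraries per group. Control mice (day 0) had neither anesthesia nor surgery. The surgery group underwent exploratory laparotomy under sevoflurane, with ropivacaine given along the incision, and tissue was taken at day 3 after surgery. Euthanasia was by an overdose of sevoflurane, which the control mice therefore received as well. The sources used here do not say whether the libraries of a group came from separate animals, so the p-values reflect only the spread among these libraries, which may be technical. In whole tissue, fewer cells of a type and less RNA per cell cannot be told apart.

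The mitochondrial ribosome translates the few proteins that the mitochondrial genome encodes, all of them subunits of the respiratory chain and the ATP synthase. Its ribosomal RNAs come from the mitochondrial genome, whereas its proteins are encoded in the nucleus, made in the cytosol and imported. Some of these proteins have a homologue in the bacterial ribosome and others are specific to mitochondria. Hippocampal neurons depend on oxidative phosphorylation for synaptic transmission.

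The 4 libraries held 18002695 to 19318085 gene counts, and MRP genes took 0.177% and 0.196% of them in the control libraries and 0.178% and 0.180% after surgery. Counts were scaled to CPM, the count of a gene within 1000000 counts of its library, with TMM factors, which correct for differences in RNA composition. All 8 markers of hippocampal neurons were detected, at a summed level of 5470 to 6750 CPM. Control replicate 1 stood apart in the 5 markers of the choroid plexus, which summed to 50.8 CPM there and to 3490 to 4520 CPM in the other libraries. Surgery replicate 2 had 2930 CPM of the 5 oligodendrocyte markers against 4100 to 4260 CPM in the others. The part of these markers in the results below was not tested.

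MRP genes were expressed at moderate and unequal levels, and the order of the genes was nearly the same in every library. Per length of transcript, the median member had 9.31 FPKM (fragments scaled to transcript length and library size), against 4.22 FPKM for all 17236 tested genes. The levels reached from 1.63 FPKM for Mrpl33 to 38.0 FPKM for Mrpl41, a 23.4-fold range. The median was 10.2 FPKM over the 50 genes of the large subunit and 8.12 FPKM over the 27 genes of the small subunit. Between any pair of libraries the member levels in FPKM had a Spearman correlation of 0.936 to 0.974 across genes, which are not independent replicates.

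Mrpl41, a protein of the large subunit without a bacterial homologue, had 36.4 and 46.7 FPKM in control and 29.7 and 39.2 FPKM after surgery. Mrps21, a small-subunit protein with a bacterial homologue, had 28.2 and 33.9 FPKM in control and 16.6 and 27.4 FPKM after surgery. The groups overlapped for Mrpl41 and did not for Mrps21. At the other end Mrpl33 had 1.31 and 1.68 FPKM in control and 1.74 and 1.77 FPKM after surgery, followed by Mrps35 with 1.53 and 1.96 against 2.22 and 1.95 FPKM. Below Mrpl41 and Mrps21 the next levels belonged to Mrpl27 (22.7 FPKM on average over the 4 libraries), which reaches toward the catalytic centre, Mrpl10 (22.0 FPKM), which carries the stalk protein Mrpl12, and Mrpl43 (22.0 FPKM). These 3 averages lay closer together than the libraries of Mrpl27, which ran from 20.0 to 28.6 FPKM.

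**Figure D1:**
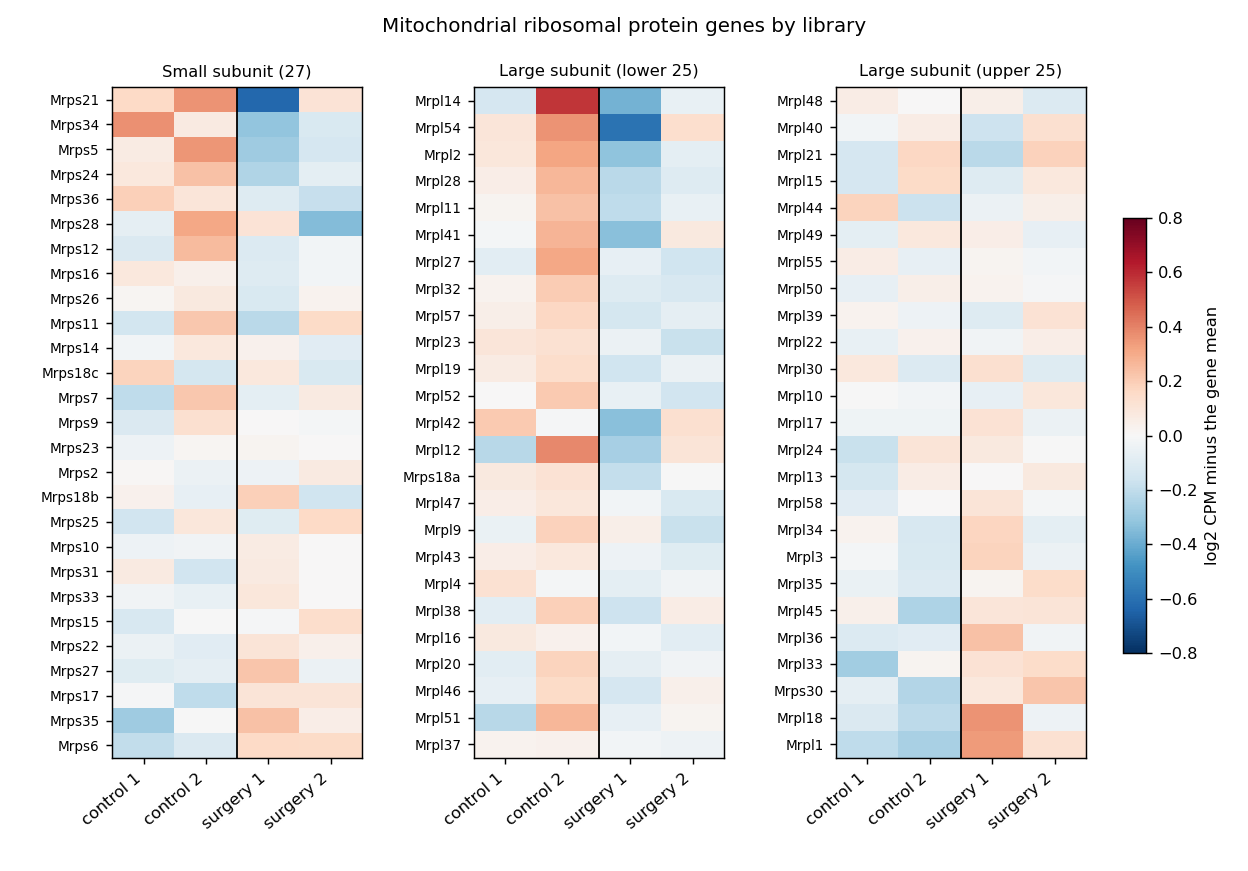
Level of each of the 77 MRP genes in each of the 4 libraries, as log2 CPM minus the mean of that gene over the libraries, with the genes of each subunit ordered by log2 fold change from the lowest (top) to the highest (bottom). Red is above and blue below the gene mean, and the vertical line parts control from surgery. Control replicate 2 had the highest level of 36 of the 77 genes, and the 2 libraries of a group often differed in colour.

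After surgery the MRP genes lay close to control, with no member past the adjusted threshold and log2 fold changes between -0.48 and 0.47. The median log2 fold change was -0.030 over the 77 members and 0.000533 over all tested genes, with 31 members above 0 and 46 below. At an unadjusted p under 0.05 edgeR's quasi-likelihood test gave 1 higher member, Mrpl1, which is 1.3% of the members where 4.33% of all tested genes were higher. It gave 4 lower members, Mrps5, Mrps34, Mrpl2 and Mrpl28, which is 5.19% of the members where 5.63% of all tested genes were lower. At a Benjamini-Hochberg adjusted p under 0.05 edgeR called 0 of 77 members (0% of all genes) and DESeq2 called 0 of 77 (0.226% of all genes), although DESeq2 gave Mrpl1 and Mrps5 an unadjusted p under 0.05. Both surgery libraries lay above both controls in 14 members (18.2%, against 20.3% of all genes) and below both in 20 members (26.0%, against 22.3%). The shares of members that were lower or without overlap are close to those of all genes. The share higher by the unadjusted p was smaller, but it rests on 1 member. The number of lower members turned on single libraries, as did the number of all genes past the adjusted threshold. Shares of all genes by the unadjusted p in those fits are not given here, so the member counts have no base to stand beside. Leaving out control replicate 1 gave 7 and surgery replicate 2 gave 8, while leaving out either control replicate 2 or surgery replicate 1 gave 1. Higher members numbered 2 without control replicate 2 or surgery replicate 2 and 0 without surgery replicate 1.

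A 2-fold difference lay outside the interval of nearly every member. The standard error of the log2 fold change had a median of 0.158. The 95% interval lay within 1 on the log2 scale on both sides of 0 for 76 of 77 members (98.7%, against 74.9% of all tested genes). Fold changes of 31 members were larger than their own standard error, as were those of 7640 of the 17236 tested genes.

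**Figure D2:**
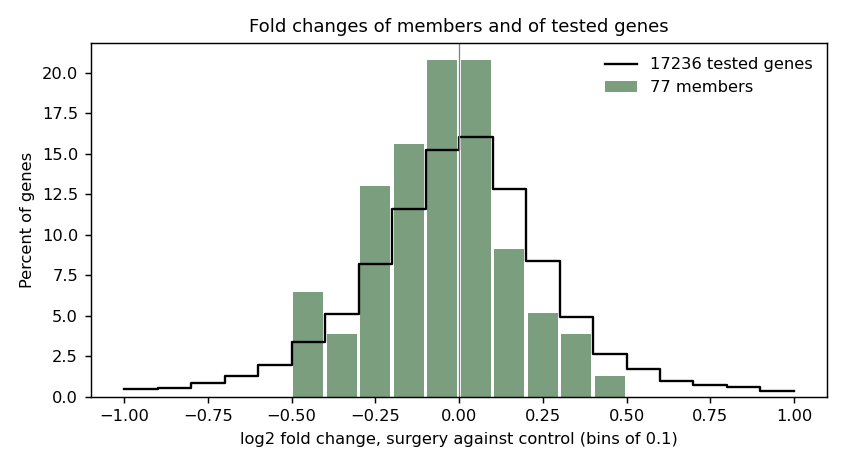
Share of genes in each bin of log2 fold change (surgery against control, bins of 0.1), with bars for the 77 MRP genes and a line for the 17236 tested genes, shown from -1 to 1. All 77 members lay between -0.48 and 0.47, around a median of -0.030, whereas the line goes on past both ends of the bars.

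Differences between the libraries of 1 group were of the same size as those between the groups. The median absolute log2 difference over the members was 0.164 between the control libraries and 0.137 between the surgery libraries. For the 4 pairs of a control and a surgery library it was 0.119, 0.140, 0.142 and 0.232. The largest of these values belonged to control replicate 2 and surgery replicate 1. Control replicate 2 had the highest CPM of 36 members (46.8%), where it had the highest CPM of 27.4% of all tested genes. Without that library the median log2 fold change of the members was 0.019, and without control replicate 1 it was -0.080.

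Mrps5, the homologue of a bacterial protein that helps keep decoding accurate, was the lower member with the smallest p. In GRCm38 the gene (ENSMUSG00000027374) spans 127587222 to 127606829 of chromosome 2. It had 39.7 and 48.5 CPM in control and 31.1 and 34.5 CPM after surgery, or 44.1 ± 6.25 against 32.8 ± 2.44 CPM (SD, n = 2). Both surgery libraries lay below both controls. On the log2 scale the difference was -0.43 (SE 0.14, edgeR adjusted p = 0.410), with an unadjusted p under 0.05 in all 8 other settings of scaling, filter, tool or unit and in 3 of the 4 fits without 1 library. Without control replicate 2 the log2 fold change was -0.27. A processed copy of the gene, Gm13328, had at most 4 counts in any library.

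Mrpl1 encodes the protein of the mobile stalk beside the exit site of the large subunit and was the only member above control at an unadjusted p under 0.05. In GRCm38 the gene (ENSMUSG00000029486) spans 96209493 to 96266727 of chromosome 5. It had 15.3 and 14.7 CPM in control and 22.3 and 19.2 CPM after surgery, so that the groups did not overlap. The log2 fold change was 0.47 (edgeR, SE 0.16, adjusted p = 0.417) and lay between 0.31 and 0.47 in the 8 other settings. Without surgery replicate 1 it was 0.36 and no longer had an unadjusted p under 0.05.

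Mrps34, a small-subunit protein specific to mitochondria whose loss in mice destabilises that subunit, had 19.0 and 15.5 CPM in control and 11.8 and 13.5 CPM after surgery. Mrpl2, which lies at the catalytic centre of the large subunit, had 20.9 and 24.4 CPM in control and 15.7 and 18.6 CPM after surgery. For Mrpl28, another large-subunit protein with a bacterial homologue, the values were 28.8 and 33.4 CPM against 23.9 and 25.8 CPM. None of these 3 genes overlapped between the groups. Their log2 fold changes were -0.45 (SE 0.18), -0.40 (SE 0.16) and -0.32 (SE 0.14), with adjusted p from 0.462 to 0.488 from edgeR. All 3 lost the unadjusted p under 0.05 without surgery replicate 1, Mrps34 without control replicate 1 (-0.29), Mrpl2 (-0.28) and Mrpl28 (-0.20) without control replicate 2, and Mrpl28 also without surgery replicate 2. They lost it as well with DESeq2 and with the offset for GC content described below.

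The genome around Mrps34 limits what its count can show. Its exons overlap those of Nme3 on the same strand and of Mapk8ip3 on the other strand, and the sources used here do not say whether counting used the strand. Mapk8ip3 itself had a log2 fold change of -0.23 (SE 0.14). Over all members, 32 share exon bases with another gene and 17 have a near-identical stretch elsewhere, taken as at least 95% identity over 300 bases. The 35 members with neither gave a median log2 fold change of -0.025, with 1 above and 2 below control at an unadjusted p under 0.05.

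The lowest fold change of all members was that of Mrps21, and it rested on 1 library. The estimated counts of its largest transcript went the other way, as described below. Mrps21 had 21.2 and 24.4 CPM in control but 12.3 and 20.5 CPM after surgery. The log2 fold change was -0.48 (edgeR, SE 0.22, adjusted p = 0.506). Without surgery replicate 2 it was -0.89 (edgeR adjusted p = 0.00704), the only call of a member gene at the adjusted threshold in any fit, and without surgery replicate 1 it was -0.15. The fit without surgery replicate 2 called 734 of the 17236 genes.

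Mrpl14, which sits at the interface of the subunits, had 7.69 and 12.5 CPM in control and 6.49 and 8.07 CPM after surgery. Mrpl54, specific to mitochondria, had 11.7 and 14.0 CPM in control and 7.27 and 12.0 CPM after surgery. The groups overlapped in both genes, whose log2 fold changes were -0.47 (SE 0.25) and -0.41 (SE 0.24). Without control replicate 2 the value of Mrpl14 was -0.072, and without surgery replicate 1 that of Mrpl54 was -0.090.

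Among the members with the largest positive values after Mrpl1, Mrpl18 had 18.7 and 17.5 CPM in control and 26.0 and 19.7 CPM after surgery. Mrps6, a small-subunit protein with a bacterial homologue, had 15.9 and 16.8 CPM in control and 20.3 and 20.2 CPM after surgery. Neither overlapped between the groups, and their log2 fold changes were 0.34 (SE 0.17) and 0.31 (SE 0.15). Mrps30 (0.30, SE 0.16), which despite its name belongs to the large subunit, Mrps35 (0.28, SE 0.17) and Mrpl33 (0.25, SE 0.18) followed. Single libraries moved several of these values, to 0.13 for Mrpl18 without surgery replicate 1 and 0.53 without surgery replicate 2, and to 0.15 for Mrps35 and 0.11 for Mrpl33 without control replicate 1. Without control replicate 2 they were 0.44 for Mrps35 and 0.42 for Mrpl33, and with the offset for GC content Mrps30 stood at 0.14. Mrps6 shares exon bases with the transporter gene Slc5a3 on its strand. Mrpl18 shares exon bases with Tcp1 on the other strand, a chaperonin subunit gene that had a log2 fold change of 0.27 (SE 0.13).

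**Figure D3:**
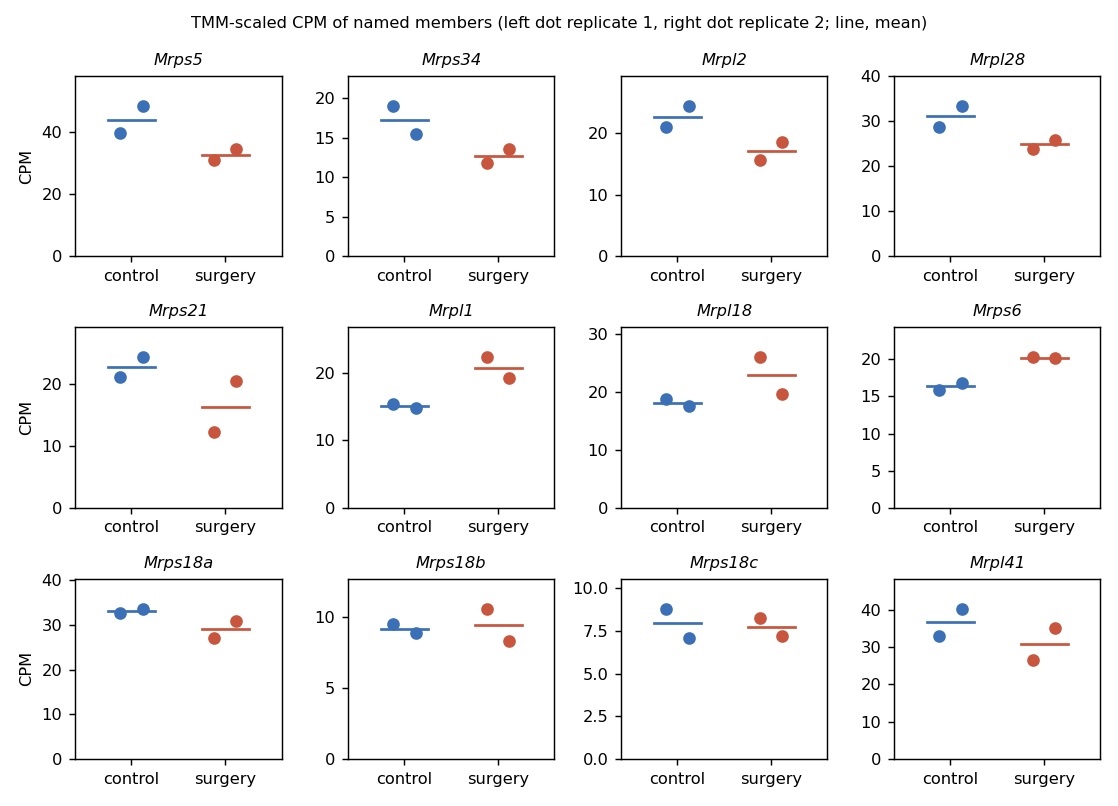
TMM-scaled CPM of 12 named MRP genes in control (blue) and surgery (red), with the left dot for replicate 1, the right dot for replicate 2 and a line at the mean of the group. The groups are apart for Mrps5, with 39.7 and 48.5 against 31.1 and 34.5 CPM, and for Mrpl1, with 15.3 and 14.7 against 22.3 and 19.2 CPM, whereas Mrps18b, Mrps18c and Mrpl41 overlap.

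Both subunits had medians near 0, and the difference between them was not tested. The 27 genes of the small subunit gave a median log2 fold change of -0.016, with 0 above and 2 below control at an unadjusted p under 0.05. The 50 genes of the large subunit had a median of -0.061, with 1 higher and 2 lower. Without control replicate 2 both medians lay above 0, at 0.058 and 0.0080. By origin, the 46 members with a bacterial homologue had a median of -0.034 and the 31 specific to mitochondria one of -0.030. The 11 members counted as small-subunit proteins specific to mitochondria were the only class with a positive median, 0.060. It went to -0.018 with the offset for GC content. Mrps36 (-0.28, SE 0.18) is among these 11 by its name. At the adjusted threshold edgeR and DESeq2 called 0 genes in each class.

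The 3 Mrps18 paralogs are related to a single bacterial protein and occupy different places in the ribosome. Only Mrps18c is counted here among the members with a bacterial homologue, while Mrps18a and Mrps18b are counted as specific to mitochondria. Mrps18a, which sits in the large subunit, had 32.8 and 33.7 CPM in control and 27.2 and 31.0 CPM after surgery, and 8.43 FPKM on average. Mrps18b, in the small subunit, had 9.50 and 8.86 CPM in control and 10.6 and 8.30 CPM after surgery, and 4.45 FPKM on average. Mrps18c, the paralog that takes the place of the bacterial protein in the small subunit, had 8.81 and 7.08 CPM in control and 8.26 and 7.18 CPM after surgery, and 7.26 FPKM on average. The surgery libraries lay below the controls for Mrps18a and overlapped with them for the other two. Per length, the libraries of Mrps18a (7.33 to 9.37 FPKM) and Mrps18c (6.60 to 8.03 FPKM) overlapped. Log2 fold changes were -0.19 (SE 0.14), 0.043 (SE 0.20) and -0.040 (SE 0.21), with adjusted p of 0.645 or above from edgeR.

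Promoters of MRP genes often hold matches to motifs of factors known to drive nuclear genes of mitochondrial function. Sequences from 250 bases before to 50 bases after the start site (RefSeq, GRCm38.p6) were given for 68 members, with 74 promoters. Both strands were searched for GCGCANGCG, the core of the NRF1 motif, CCGGAAG, the core of motifs of ETS factors such as GABP, AAGATGGCG, a form of the YY1 motif, and TATAAA. An ETS match stood in 25 of 74 promoters (33.8%, against 14.82% of the 15475 promoters of tested genes). An NRF1 match stood in 16 (21.6%, against 11.52%) and a YY1 match in 8 (10.8%, against 2.48%), while TATAAA was found in 5 (6.8%, against 7.61%). With forms of the motifs 1 base (NRF1) and 2 bases (YY1) longer, which were searched before the shorter ones were chosen after seeing the data, the matches numbered 13 (17.6%, against 8.56%) and 5 (6.8%, against 1.21%). The median GC content of the promoters was 58.5%, against 60.3% for tested genes. A match is a description of the sequence and says nothing of binding in these samples.

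All 3 Mrps18 paralogs hold a match, which is an ETS and a YY1 match in Mrps18a, an NRF1 match in Mrps18b and an ETS match in Mrps18c. Mrps21, with the lowest fold change, holds an NRF1 and an ETS match, Mrpl43, with one of the highest levels, holds a pair of ETS matches, and Mrpl30, whose transcripts are described below, holds a pair of NRF1 matches. These stretches are shown for that reason, on the strand of the gene and with the matches in capitals. In the order printed they lie at chr17:46110948-46111033 (plus strand), chr17:35916626-35916690 (minus strand), chr5:100798573-100798639 (plus strand), chr3:95871485-95871634 (minus strand), chr19:45006418-45006528 (minus strand) and chr1:37890345-37890433 (plus strand).
Mrps18a: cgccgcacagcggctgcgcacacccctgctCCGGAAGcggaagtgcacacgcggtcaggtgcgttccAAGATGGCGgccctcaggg
Mrps18b: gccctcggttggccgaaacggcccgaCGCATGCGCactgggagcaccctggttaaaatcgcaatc
Mrps18c: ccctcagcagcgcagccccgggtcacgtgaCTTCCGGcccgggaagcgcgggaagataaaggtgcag
Mrps21: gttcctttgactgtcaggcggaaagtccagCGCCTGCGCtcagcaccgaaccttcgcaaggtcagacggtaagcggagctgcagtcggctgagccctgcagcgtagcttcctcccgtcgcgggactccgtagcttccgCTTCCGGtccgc
Mrpl43: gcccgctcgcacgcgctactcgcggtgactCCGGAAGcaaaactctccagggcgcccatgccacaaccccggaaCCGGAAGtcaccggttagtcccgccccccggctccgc
Mrpl30: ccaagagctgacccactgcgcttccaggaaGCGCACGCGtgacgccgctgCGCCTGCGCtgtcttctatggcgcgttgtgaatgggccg
A match that reads CTTCCGG, CGCCTGCGC or CGCATGCGC is the motif on the opposite strand. Mrps18b also holds an ETS match more than 30 bases after its start site, which is not shown.

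Fold changes of members with and without a match are given as medians, and their differences were not tested. The median log2 fold change was -0.027 over the 25 members with an ETS match and -0.020 over the 43 without one. It was -0.017 over the 16 members with an NRF1 match and -0.029 over the 52 without, and -0.064 over the 8 with a YY1 match and -0.019 over the 60 without. With the longer NRF1 form it was -0.095 over 13 members with a match and -0.020 over the 55 without. Of the 5 members with an unadjusted p under 0.05, Mrps5, Mrpl1, Mrpl2 and Mrpl28 hold none of the 3 matches, and no promoter sequence was used for Mrps34.

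Many MRP genes start close to a gene on the other strand. A protein-coding gene started within 1000 bases in the opposite direction for 18 of 77 members (23.4%), against 9.2% of tested protein-coding genes. Mrps12 lies 172 bases from Sars2, the seryl-tRNA synthetase of mitochondria, Mrpl49 lies 59 bases from Fau, which encodes a protein of the cytosolic ribosome, and Mrpl32 lies 75 bases from the proteasome gene Psma2. The 18 members gave a median log2 fold change of -0.064, with 0 higher and 3 lower by the unadjusted test, where 5.63% of all genes were lower, and the other 59 one of -0.020, with 1 higher and 1 lower. The median of the 18 was -0.18 without control replicate 1, -0.14 without surgery replicate 2 and -0.13 with the offset for GC content. The 3 lower ones are Mrps5, beside Zfp661 (log2 fold change 0.027, SE 0.23), Mrpl2, beside Klc4 (0.029, SE 0.17), and Mrps34, beside Eme2 (-0.26, SE 0.23).

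Mrps11 (chromosome 7, from 78783119 to 78792989) and Mrpl46 (chromosome 7, from 78775236 to 78783531), both members and on opposite strands, overlap at their 5′ ends. Mrps11 had 12.6, 16.2, 12.0 and 15.5 CPM in control 1, control 2, surgery 1 and surgery 2, and Mrpl46 had 13.7, 16.0, 13.1 and 14.8 CPM. Replicate 2 was the higher library of each group for both genes. If strand was not used in counting, reads in the shared bases cannot be told apart.

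Fold changes of MRP genes ran against GC content, as they did over all genes. Across the 77 members the log2 fold change had a Spearman correlation of -0.357 with the GC content of the longest transcript, and across all tested genes one of -0.454. Relative to the gene mean, the levels of all genes correlated with GC content at 0.258 and 0.590 in control 1 and 2 and at -0.647 and -0.0573 in surgery 1 and 2. The median GC content of the members was 49.7%. Mrps34 (59.9%), Mrpl2 (57.5%) and Mrpl28 (58.6%) lay above it, while Mrpl1 (41.6%) and Mrps5 (46.9%) lay below.

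With an offset for GC content in each library the correlation over the members was 0.173 and that over all genes 0.00147. The log2 fold changes were then -0.22 for Mrps34, -0.23 for Mrpl2 and -0.12 for Mrpl28. Mrps5 stood at -0.49 and Mrpl1 at 0.31, both with an unadjusted p under 0.05. In that fit Mrps6 was also higher (0.34), and Mrpl32 (-0.37) and Mrpl57 (-0.35) were lower, at an unadjusted p under 0.05. The members' median was -0.042. Mrpl32 and Mrpl57 were picked out only once their values had been seen.

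**Figure D4:**
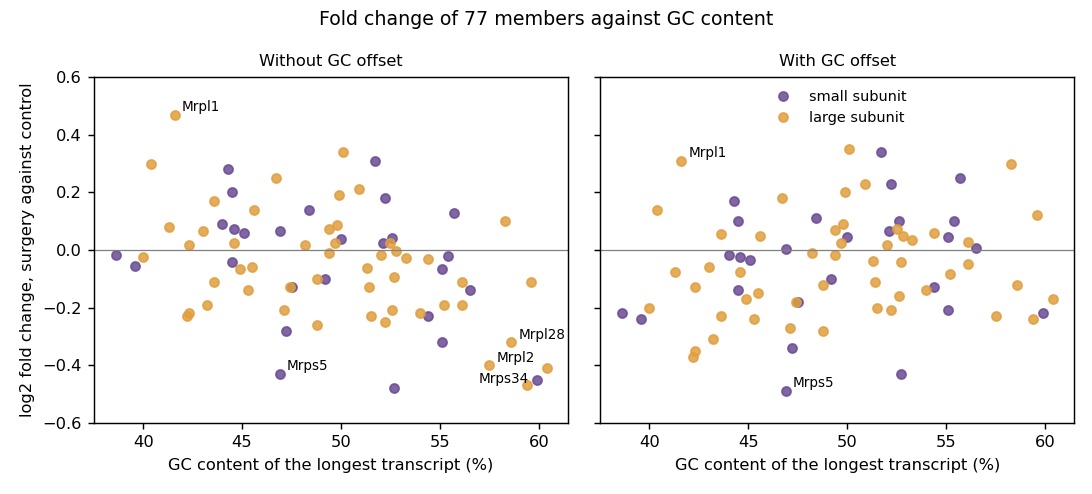
Log2 fold change (surgery against control) of the 77 MRP genes against the percent GC of their longest transcripts, without an offset for GC content (left) and with it (right), coloured by subunit. On the left Mrps34, Mrpl2 and Mrpl28 lie at the lower right and Mrpl1 at the upper left, with a Spearman correlation of -0.357 that is 0.173 on the right, where Mrps5 stands at -0.49 and Mrpl1 at 0.31, closer to 0 than its 0.47 on the left.

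The genes that work with the mitochondrial ribosome were described by lists of its partners. The 15 tested translation factors showed a median log2 fold change of 0.026, with 2 above and 0 below control at an unadjusted p under 0.05. By that test 4.33% of all tested genes were higher and 5.63% lower, which is the base for the lists that follow as well. Rmnd1, an anchor of the ribosome at the inner membrane, had 16.1 and 15.3 CPM in control and 19.7 and 21.7 CPM after surgery (log2 fold change 0.40, SE 0.15, edgeR adjusted p = 0.456). Mtrf1, a peptide release factor, had 6.10 and 4.70 CPM in control and 8.05 and 7.74 CPM after surgery (log2 fold change 0.55, SE 0.23, edgeR adjusted p = 0.473). Neither gene overlapped between the groups. The unadjusted p under 0.05 was lost without control replicate 2 and without surgery replicate 2 for both, without surgery replicate 1 for Mtrf1, and with DESeq2 for both. Mtrf1 also lost the unadjusted p under 0.05 with the offset for GC content, and Rmnd1 with log2 FPKM after adding either 1 or 0.1. The 22 aminoacyl-tRNA synthetases of mitochondria had a median of 0.025 with 0 higher and 0 lower, and the 5 tested ribosomal proteins with other symbols, such as Dap3 (0.047, SE 0.11), had 0 higher and 0 lower.

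Of 27 genes of ribosome assembly and rRNA modification, 1 was higher at an unadjusted p under 0.05 and 0 lower, around a median of 0.0083. It was Fastkd2, which binds the ribosomal RNA of the large subunit, with 18.3 and 16.3 CPM in control and 22.9 and 20.9 CPM after surgery (log2 fold change 0.34, SE 0.15). Of 16 tested genes of mitochondrial transcription and RNA processing, 1 was higher and 0 lower. This gene, Pnpt1, which degrades mitochondrial RNA, had 25.2 and 23.4 CPM in control and 29.8 and 30.6 CPM after surgery (0.31, SE 0.14). Pnpt1 had no unadjusted p under 0.05 in any of the 4 fits without 1 library, and Fastkd2 only in that without control replicate 1. Both lost it with DESeq2 and with the offset for GC content, where they stood at 0.13 and 0.20. The median of the transcription and processing list was 0.18, but 0.070 without surgery replicate 1, 0.27 without surgery replicate 2 and 0.13 with the offset, at a median GC content of 44.9%. At the adjusted threshold edgeR and DESeq2 called 0 genes in all of these lists.

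Among 11 regulators of nuclear genes of mitochondria, 3 were lower and 0 higher at an unadjusted p under 0.05. By that test 5.63% of all tested genes were lower. In each of the 3 both surgery libraries lay below both controls, as in 22.3% of all tested genes. Esrra, a nuclear receptor that binds genes of oxidative metabolism, had 40.9 and 53.2 CPM in control and 25.0 and 32.7 CPM after surgery (log2 fold change -0.70, SE 0.17, edgeR adjusted p = 0.340). Its coactivator Ppargc1b had 12.9 and 12.1 CPM in control and 6.86 and 8.02 CPM after surgery (log2 fold change -0.75, SE 0.19, edgeR adjusted p = 0.344). Pprc1, a related coactivator, had 36.7 and 39.4 CPM in control and 23.4 and 28.7 CPM after surgery (log2 fold change -0.55, SE 0.14, edgeR adjusted p = 0.368).

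Each of these 3 genes kept an unadjusted p under 0.05 in all 8 other settings and in all 4 fits without 1 library. At the adjusted threshold edgeR called Esrra without control replicate 1 (adjusted p = 0.0435), without surgery replicate 2 (5.38e-05) and with no filter (0.000744). It called Pprc1 without surgery replicate 2 (0.00854) and with no filter (0.0417), and Ppargc1b with no filter (0.0464). Over all genes the fit without surgery replicate 2 called 734, that with no filter 395 and that without control replicate 1 51, where 0 were called with all libraries and the filter. The fit with a block for the replicate number called Esrra as well, among 39 genes in all. The factors whose motifs were searched had smaller values, with log2 fold changes of -0.073 (SE 0.15) for Nrf1, 0.23 (SE 0.13) for Gabpa and -0.037 (SE 0.11) for Yy1. The coactivator Ppargc1a stood at 0.18 (SE 0.13).

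The mitochondrial genome encodes the RNAs that the ribosome is built on and translates, and it took 5.25% and 4.51% of all gene counts in control and 6.32% and 6.61% after surgery. Its 15 protein and rRNA genes gave a median log2 fold change of 0.43, with 13 above 0, and 0.20 with the offset for GC content, at a median GC content of 36.0%. At an unadjusted p under 0.05 edgeR put 4 of them higher and 0 lower, and DESeq2 called 3 at the adjusted threshold where edgeR called 0. The 84 tested genes of cytosolic ribosomal proteins ranged from -1.82 to 0.63 around a median of -0.050. At an unadjusted p under 0.05, 8 of them were above and 15 below control, where 4.33% of all tested genes were higher and 5.63% lower. The differences of these lists from the MRP genes were not tested.

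In the table of estimated counts per transcript, 305 transcripts belong to the 77 genes, and 244 of them were tested. A few isoforms stood far from control in these estimates while the separate count of their gene stood close to it. At an unadjusted p under 0.05 edgeR gave 6 higher transcripts (2.46% of those of members, where 2.69% of all 65665 tested transcripts were higher) and 3 lower (1.23%, where 3.30% of all were lower). At the adjusted threshold it called 0 (0% of all), and DESeq2 called 4 (1.64%, against 3.95% of all). Higher transcripts numbered 2 without surgery replicate 2, and lower ones 9 without surgery replicate 1, 6 without surgery replicate 2 and 2 without control replicate 2. Shares of all transcripts by the unadjusted p in those fits are not given here. Transcript counts summed to 3.88 times the gene counts in total, and among members from 0.736 times (Mrpl37) to 18.9 times (Mrps25). Transcript and gene values are therefore not on 1 scale, and no tool for the transcript counts is given in the sources used here.

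Mrpl30-207, a protein-coding transcript, had 508 and 217 estimated counts in the control libraries and 1481 and 1177 after surgery. It made up 19.9% and 10.1% of the counts of all transcripts of Mrpl30 in control and 46.8% and 48.3% after surgery. Both surgery libraries lay above both controls, with a log2 fold change of 1.90 (edgeR, SE 0.57, adjusted p = 0.734), while the Mrpl30 gene had one of 0.024 (SE 0.14). The leading transcript of Mrpl30 was Mrpl30-201 in both control libraries and Mrpl30-207 in both surgery libraries.

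Mrps12-204, also protein-coding, had 341 and 399 estimated counts in the control libraries and 788 and 721 after surgery (log2 fold change 1.05, SE 0.35). It made up 41.3% and 31.1% of the counts of all Mrps12 transcripts in control and 52.7% and 48.1% after surgery. Mrpl55-204 had 24 and 38 against 123 and 78 (log2 fold change 1.71, SE 0.55). In both the groups did not overlap, whereas the log2 fold change of the gene was -0.14 (SE 0.16) for Mrps12 and -0.0033 (SE 0.16) for Mrpl55. Very low control values stood behind the other 3 higher transcripts. Mrpl3-205 had 2 and 2 estimated counts in the control libraries and 405 and 95 after surgery (adjusted p = 0.438 with edgeR and 1.3e-05 with DESeq2). Mrpl2-205, a noncoding transcript, had 1 and 1 against 25 and 112 (0.518 from edgeR and 0.00545 from DESeq2 after adjustment), and Mrpl18-202 had 2 and 2 against 14 and 16.

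Of the lower transcripts, Mrps2-203 had 92 and 77 estimated counts in the control libraries and 27 and 26 after surgery, a log2 fold change of -1.64 (edgeR, SE 0.43, adjusted p = 0.636 and 0.0405 with DESeq2). Mrps18a-205, which retains an intron, had 62 and 71 against 23 and 14 (-1.82, SE 0.51), and Mrpl15-204, with a retained intron as well, had 11 and 27 against 1 and 3. The genes Mrps2 (0.038, SE 0.13) and Mrpl15 (-0.025, SE 0.16) lay near 0.

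For Mrps9-201 the level in control turned on 1 library. It had 839 and 35 estimated counts in the control libraries and 12 and 12 after surgery, so that it made up 53.7% of the gene in control 1 and 2.54% in control 2 (edgeR log2 fold change -5.13, and -1.52 without control replicate 1; adjusted p = 0.861 from edgeR and 0.0499 from DESeq2). Mrpl27-204 had 313 and 91 against 14 and 0, and Mrpl44-202 had 52 and 30 against 16 and 13. Both controls lay above both surgery libraries in all 3 transcripts, and none had an unadjusted p under 0.05 with edgeR. The leading transcript was the same in all 4 libraries for 55 genes and differed in some library for 22, and in 2 of these, Mrpl30 and Mrps9, the groups shared no leading transcript. By class, protein-coding transcripts held 86.2% and 84.7% of the members' estimated counts in the control libraries and 84.8% and 85.8% after surgery.

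**Figure D5:**
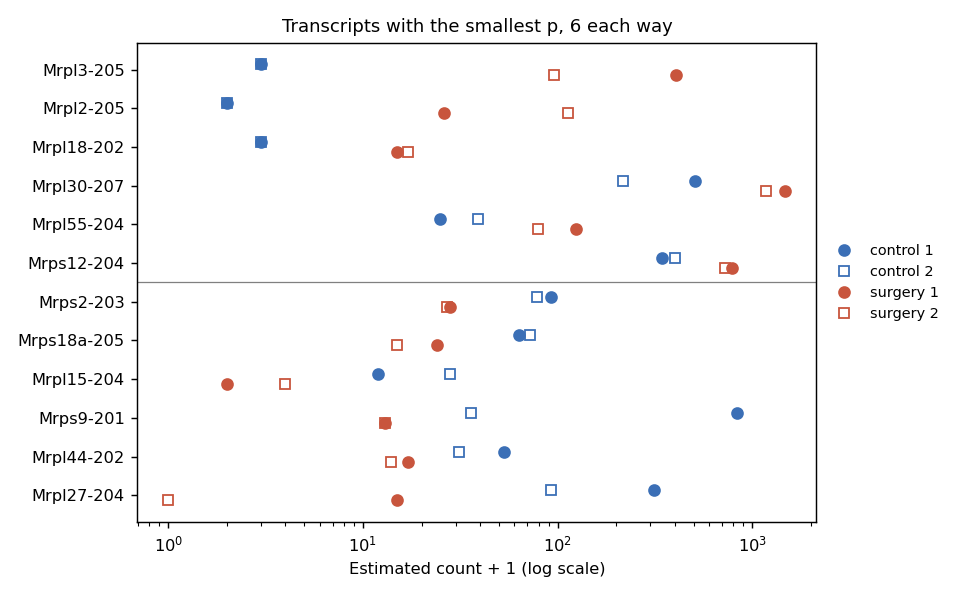
Estimated counts plus 1 (log scale) of the 12 MRP transcripts with the smallest p, 6 above control (top) and 6 below (bottom), with filled circles for replicate 1 and open squares for replicate 2. Mrpl30-207 and Mrps12-204 show groups apart above 200 counts, Mrpl3-205, Mrpl2-205 and Mrpl18-202 have 1 or 2 counts in both controls, and the controls of Mrps9-201 lie at 839 and 35.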

How the data were processed

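Hippocampal RNA of 2 control and 2 surgery libraries, grouped by the sample labels, was used. The authors aligned reads to mm10 with HISAT2 at default parameters and counted them with HTSeq, given as version 5.4.2. The sources used here give no annotation, strand setting or tool for transcripts. Deposited were raw counts and FPKM of genes, and estimated counts of transcripts, which were rounded here. Transcript FPKM were not used. FPKM depend on the authors' gene lengths and column totals.

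Counts (18002695 to 19318085 per library) of surgery and control were compared by the quasi-likelihood test of edgeR 4.0.16 under R 4.3.3, with TMM factors and a low-count filter (filterByExpr, min.count 10, min.total.count 15). All p-values were adjusted by Benjamini-Hochberg over all 17236 genes or 65665 transcripts, at a threshold of 0.05. Alternatives were DESeq2 1.42.0 without independent filtering, limma-voom 3.58.1, RLE factors, no filter, a replicate block, a GC offset (span 0.3, genes above a log2 CPM of 3), limma-trend with log2 FPKM after adding 1 or 0.1, and each library left out, where the lone sample of a group is assumed to vary like the other group. Methods were tested on simulated data. GENCODE vM21 gave positions, GC content and overlaps, and positions in the file equalled it for 71 of 77 members.

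Named were members at an unadjusted p under 0.05, the 6 highest and 6 lowest fold changes, the 5 highest levels, the Mrps18 paralogs, up to 6 transcripts each way and up to 4 genes of each partner list at an unadjusted p under 0.05. Nrf1, Gabpa, Yy1, Ppargc1a, Dap3, neighbouring genes, Mrps11 and Mrpl46, and the transcripts of Mrps21 were named outside this rule. Members and lists were chosen with earlier results of these data known. Mrpl53 was not analysed here.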

Additional observations from a re-analysis of the deposited data

How the results depend on the processing

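Over 4 summary results for genes under 12 settings and 3 for transcripts under 8, 50 of 72 values stayed within 1.5 times the count, or within the spread between replicates (an SD of 0.0424) for the median. The higher members numbered 2 with FPKM at either pseudocount, with the GC offset and with no filter, and the lower ones 1 with DESeq2. With 1 library left out, higher members numbered 0 to 2, lower ones 1 to 8 and members past the adjusted threshold 0 to 1, and the median log2 fold change ran from -0.0802 to 0.019. For transcripts DESeq2 gave 6 lower and 4 past the adjusted threshold. Without 1 library, 2 to 7 transcripts were higher and 2 to 9 lower.

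With a replicate block 1 member was higher and 6 were lower, and 3 transcripts were higher and 0 lower. Shares of all genes and transcripts by the unadjusted p are not given here for this fit or the other alternative fits of this section. Their counts of higher and lower members and transcripts therefore have no base to stand beside. The replicate numbers share no stated animal or batch, and deviations of same-numbered libraries correlated at 0.132. Esrra passed the adjusted threshold in that fit (0.0495).

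Of 420 values for single genes and transcripts, 404 kept their direction and side of the adjusted threshold, 12 passed it and 4 reversed. Reversed were Mrpl10 without surgery replicate 2 (-0.0523, range -0.0523 to 0.11), Mrps18c without control replicate 1 or surgery replicate 2 (0.13 and 0.0588, range -0.18 to 0.13) and Mrps18b without surgery replicate 1 (-0.14, range -0.14 to 0.21). The cause was not tested. With 2 libraries a group, differences near the median standard error of 0.158 could not be resolved, and larger ones often could not either. Log2 fold changes of 31 of 77 members exceeded their own standard error. Only 1 higher and 4 lower members had an unadjusted p under 0.05 from edgeR, and 0 passed the adjusted threshold.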
